A study of Mus musculus with 8 samples.

Results

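Tanycytes are radial cells that line the floor of the third ventricle and send a basal process to the capillaries of the median eminence (ME), the hypothalamic site where neurohormones are released into the portal blood. The cells described here are tanycytes of wild-type mouse ME that carried more transcripts of ependymal or astroglial genes than of 4 genes typical of other tanycytes. They were chosen by their own measured values. In each of them, Rax, Scn7a and Col25a1 together made up at least 0.15% of the unique molecular identifiers (UMIs, each 1 captured transcript), and the UMIs of Cfap126, Dynlrb2, Aqp4 and Mlc1 outnumbered those of Dio2, Fndc3c1, Fezf2 and Lmo1. The rule found 98 member cells among 990 cells, or 9.90% (exact Clopper-Pearson 95% interval 8.11% to 11.9%). It left 123 other tanycytes, and 769 cells under the tanycyte share are called all other cells. Members were 44.3% of the 221 tanycytes (37.7% to 51.2%).

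The cells came from 1 10x Chromium library, for which the ME of 10 female wild-type C57BL/6 mice, aged 2 months, was pooled. With a single library there are no replicates of the cell groups, so no test between them was possible. Values from cells are given as UMIs of a gene per 1000000 UMIs (CPM) pooled over the cells of a group, and their 95% intervals (exact Poisson for a level, exact binomial for a ratio or share) cover counting error only. The other samples were bulk RNAseq libraries of ME, each from 1 mouse, with 3 wild-type control C57BL/6 mice and 4 mice of the genotype Rax::BrafV600E mutant. In these mutants, tamoxifen-induced CreERT2 under Rax switched on the BrafV600E oncogene in the Rax+ lineage, so tanycytes were the cells targeted. Each bulk label gives an age of 2 months, whereas the tissue was described as taken 2 months after tamoxifen induction, so the label may hold that interval and not the age. All groups had C57BL/6 as the strain in their labels, and C57BL/6N in the methods.

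Ependymal cells carry bundles of motile cilia that move cerebrospinal fluid, and their axonemes are built from radial spokes, dynein arms and nexin links under the control of the transcription factor Foxj1 and the Rfx family. Most tanycytes lack such bundles. Astroglia take up glutamate and buffer potassium and water, the last through the water channel Aqp4 at their endfeet, and Mlc1 is a membrane protein of the same endfeet. Tanycytes share many astroglial genes with astrocytes, while Dio2, the deiodinase that activates thyroid hormone, is a classical tanycyte product.

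The library held 9846289 UMIs of 18181 genes. Members had a median of 7199 UMIs and 2979.5 genes per cell, against 8667 and 3299 in other tanycytes and 7819 and 2048 in all other cells. After each cell was thinned to 3000 UMIs, the medians were 1653.5, 1596 and 1339 genes. Mitochondrial transcripts took a median of 5.44% of UMIs in members, 7.21% in other tanycytes and 2.36% in all other cells. Of 240 cells outside the tanycytes with haemoglobin at 20% of UMIs or more (erythrocyte cells, median 7815.5 UMIs), the share with a UMI of a gene was used as a measure of free RNA. One member stood apart, with haemoglobin at 27.0% of its UMIs, whereas the next highest member had 0.616%. This cell led by 1 UMI in the second criterion, and without it the rule found 97 members. The doublet caller Scrublet marked 3 of 990 cells (0.303%), none of them a member.

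Within the rule, 1 gene did most of the choosing. Members held 703 UMIs of the 4 ependymal or astroglial genes, of which 73.7% were Mlc1 (chr15:88955884-88979007, minus strand, GRCm38). Of the 98 members, 95 had a UMI of Mlc1, 34 of Aqp4, 33 of Cfap126 (chr1:171113918-171126967), a protein of the ciliary axoneme and basal body, and 32 of Dynlrb2 (chr8:116504974-116515915), a dynein light chain. Without Mlc1 only 26 members would still have passed the second criterion, compared with 92 without Cfap126, 94 without Dynlrb2 and 92 without Aqp4. On Mlc1 alone 78 would have passed, and on Cfap126 and Dynlrb2 alone 17. In 88 members Aqp4 and Mlc1 together exceeded Cfap126 and Dynlrb2, in 8 the reverse held and in 2 they were equal. Both pairs were present in 47 members, 51 had Aqp4 or Mlc1 only, and 0 had the ciliary pair only. By its own genes the rule thus chose mostly on Mlc1. A cell with 0 UMIs of the ciliary pair may still express it, and the 51 such members were shallow, with a median of 5809 UMIs.

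**Figure D1:**
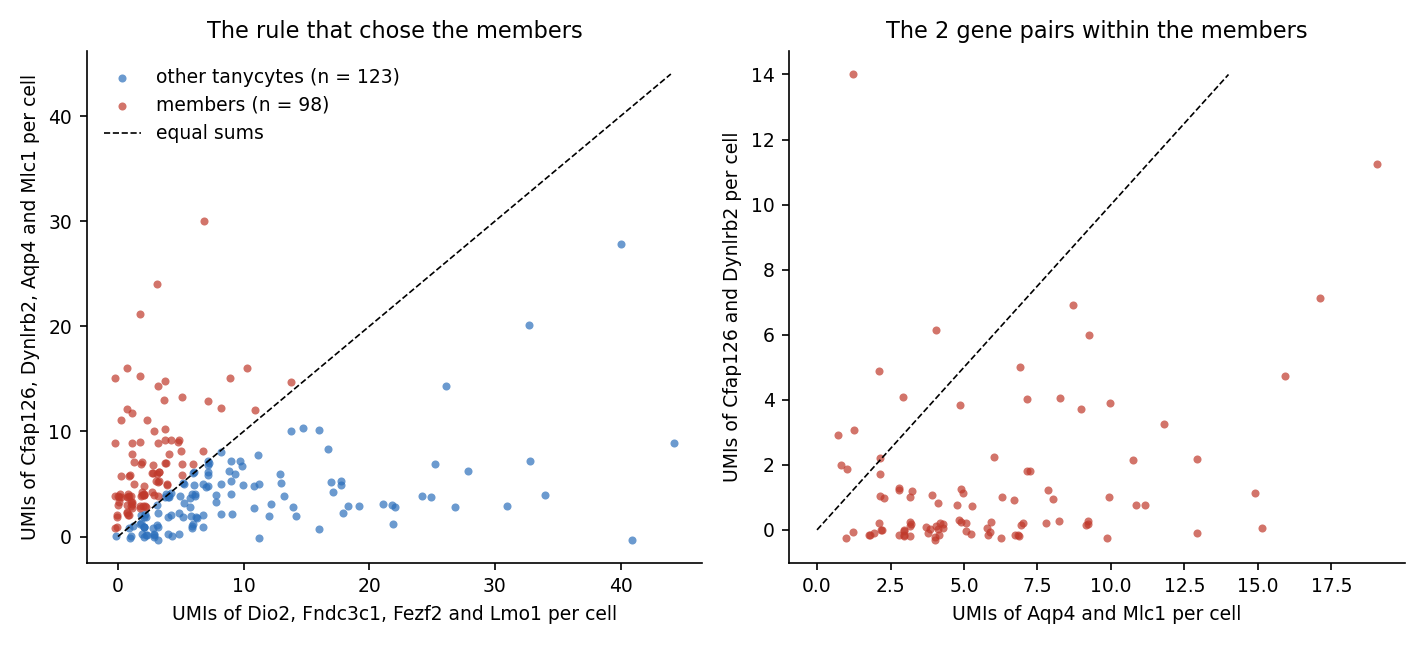
UMIs per cell of the genes used by the rule. Left, the sum of Cfap126, Dynlrb2, Aqp4 and Mlc1 against the sum of Dio2, Fndc3c1, Fezf2 and Lmo1 in 98 members (red) and 123 other tanycytes (blue), with a dashed line of equal sums. Right, the ciliary pair against the astroglial pair in members, of which 88 lie below the line. Points are jittered by under 0.5 UMI.

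As a description of what the rule used, Mlc1 stood at 670 CPM in members, 292 in other tanycytes and 25.3 in all other cells. The corresponding values were 106, 17.3 and 10.0 CPM for Cfap126, 71.2, 13.7 and 6.25 CPM for Dynlrb2, and 62.1, 15.1 and 3.38 CPM for Aqp4. The other dynein light chain of the roadblock family, Dynlrb1, which the rule did not use, was at 396 CPM in members and 342 CPM in other tanycytes. On the opposing side, Fndc3c1 was at 154 and 428 CPM, Lmo1 at 75.0 and 239 CPM, Dio2 at 88.0 and 191 CPM, and Fezf2 at 15.5 and 45.3 CPM. The 3 genes that define the tanycytes differed less, with Scn7a (a sodium channel, chr2:66673425-66784914) at 1889 and 1729 CPM, Col25a1 (a transmembrane collagen, chr3:130131501-130599877) at 1191 and 1247 CPM, and the homeobox factor Rax at 643 and 500 CPM. All 3 were detected in 88 of 98 members. Erythrocyte cells had a UMI of Mlc1 in 8.75% of cells, of Aqp4 in 1.67% and of Cfap126 in 0.417%, against 96.9%, 34.7% and 33.7% of members.

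Many cells lay close to the limits of the rule. A lead of 1 UMI was all that made 21 members, 18 led by 2 and 16 by 3, with a median of 3, and 22 tanycytes with equal sums were counted with the other tanycytes. The lowest tanycyte shares among members were 0.152%, 0.157% and 0.164%, and the highest among cells that passed only the second criterion were 0.149%, 0.148% and 0.147%.

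The motile cilia list, without the genes of the rule, was higher in members as a pooled sum. As a share of each cell's UMIs, the list had a median of 0.0703% in members and 0.0471% in other tanycytes. Of its 61 genes 59 were in the file, 54 had a UMI in members, and their sum was 1120 CPM (1047 to 1198) in members, 536 CPM (498 to 576) in other tanycytes and 338 CPM in all other cells. The log2 ratio of members to other tanycytes was 1.06 (0.92 to 1.21), and 1.25 without the most abundant gene, Morn2. As a description, 20 of the genes had at least 20 UMIs over both groups, and 7 of them were at least 2-fold higher and 0 at least 2-fold lower (ratios of CPM with 10 CPM added). Of the 7, Fam183b, Pifo, Ccdc113 and Mlf1 had 9, 5, 8 and 8 UMIs in other tanycytes, and Tekt1 also had under 20 there. These genes passed the minimum of 20 through the members, so the count is no support for a difference. With a minimum of 100 UMIs the count was 0. The count of 7 depended on the limits: it was 10 with a tanycyte share of 0.10%, 2 with 0.20%, and 0 after thinning to 3000 UMIs, where the log2 ratio of the sums was 0.67. For these thinned values the rule was applied again, which gave 77 members and 137 other tanycytes. Over all 9201 genes with 20 UMIs, 81 (0.88%) were at least 2-fold higher in members and 86 (0.935%) at least 2-fold lower. The median log2 ratio was 0.78 for the motile cilia genes and 0.06 for all genes.

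The gene with the largest ratio to other tanycytes was Fam183b, a protein of the ciliary microtubule lumen, at 64.7 CPM (48.0 to 85.3) in members and 6.47 CPM (2.96 to 12.3) in other tanycytes. Its 50 UMIs in members came from 20 cells, with at most 7 in 1 cell. The cilium gene Pifo was at 24.6 and 3.59 CPM, the tektin Tekt1 at 34.9 and 10.1 CPM, Meig1 at 45.3 and 15.1 CPM, Tppp3, which binds tubulin, at 59.5 and 24.4 CPM, and Ccdc113 and Mlf1 both at 24.6 and 5.75 CPM. These were the 7 genes past 2-fold. The genes of the list with the most UMIs differed less, with Morn2 at 163 and 133 CPM and the radial spoke protein Rsph9 at 99.6 and 72.6 CPM. Fam183b had a UMI in 20.4% of members, 5.69% of other tanycytes, 11.3% of all other cells (45.6 CPM) and 1.25% of erythrocyte cells.

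Of the motile cilia list, Tmem212 and Ccdc153, which mark ependymal cells, were at or near 0 UMIs in members. Tmem212 had 0 UMIs in 98 members. Taken at 3 counts, the limit was 3.88 CPM and 3.06% of cells with a UMI (3.69% by the exact binomial interval). This sets no limit on cells that express the gene. Ccdc153 had 1 UMI. Both were rare in the whole library, with a UMI in 2 and 5 of the 769 other cells. Foxj1, the master regulator of motile ciliogenesis, was at 22.0 CPM (12.8 to 35.2) in members and 24.4 CPM in other tanycytes, in 11.2% and 11.4% of cells. All 9 ciliogenesis regulators summed to 58.2 CPM (42.5 to 77.9) in members and 51.0 CPM (39.9 to 64.4) in other tanycytes, a log2 ratio of 0.19 (-0.38 to 0.75). Only Foxj1, Rfx2 and Rfx3 among them had a UMI in members. After thinning to 3000 UMIs, with the groups kept unchanged, Foxj1 had a UMI in 5.10% of members and 1.63% of other tanycytes, levels of few cells. A difference in the sum of the regulators was not detectable at this depth. Of the 5 ependymal genes outside the axoneme, which summed to 122 CPM (98.3 to 149) in members and 61.8 CPM (49.5 to 76.4) in other tanycytes and 142 CPM in all other cells, 1 had 20 UMIs, namely Rarres2, the precursor of the chemoattractant chemerin, at 111 and 54.6 CPM.

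Since genes of the ciliary axoneme are known targets of Rfx factors, promoters of 4 ciliary genes of these cells are shown, each as the 100 bases before a start of transcription annotated by RefSeq (GRCm38.p6), read on the strand of the gene. The gene positions given above are those of GENCODE M21, whose starts of Dynlrb2 and Cfap126 lie within the windows. Capitals mark the Rfx half-site GTTGCC or its reverse complement GGCAAC, searched on both strands. The Dynlrb2 window is chr8:116504915-116505014, that of Fam183b chr11:58801961-58802060 (minus strand), that of Tekt1 chr11:72361883-72361982 (minus strand) and that of Cfap126 chr1:171113886-171113985.
Dynlrb2: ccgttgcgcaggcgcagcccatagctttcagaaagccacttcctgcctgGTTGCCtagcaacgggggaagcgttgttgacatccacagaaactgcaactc
Fam183b: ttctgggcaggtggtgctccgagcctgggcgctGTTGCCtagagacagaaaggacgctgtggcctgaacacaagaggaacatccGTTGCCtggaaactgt
Tekt1: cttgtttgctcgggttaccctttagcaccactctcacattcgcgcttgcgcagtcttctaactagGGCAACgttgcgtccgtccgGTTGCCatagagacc
Cfap126: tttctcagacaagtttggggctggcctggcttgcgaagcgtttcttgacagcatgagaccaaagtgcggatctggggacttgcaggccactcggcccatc

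The half-site began 51 bases before the start in Dynlrb2, 67 and 16 bases in Fam183b, and 35 and 15 bases in Tekt1, while neither spelling was in the windows of Cfap126 or Mlc1. For Tekt1 and Cfap126, which have further annotated starts, the first is shown, and the further windows held no match. Over the motile cilia list, 25 of the 48 genes with a promoter window of 300 bases held it (52.1%), against 14.1% of 27025 genes. In the astroglial list 4 of 23 genes held it (17.4%), and among immediate early and stress genes 0 of 12. A match is a description of letters, and binding was not measured.

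As a description, members were split by their UMIs of Cfap126 and Dynlrb2, which the rule used. The 27 members with at least 2 UMIs of Cfap126 and Dynlrb2 had 2021 CPM (1855 to 2199) of the motile cilia list, which does not hold these 2 genes. The 20 members with 1 UMI had 715 CPM (593 to 854) and the 51 members with none had 605 CPM (525 to 694). Other tanycytes with the same counts of 2 or more, 1 and none had 693, 571 and 493 CPM (11, 17 and 95 cells). Fam183b was at 179 CPM (132 to 237) in members with at least 2 such UMIs and 11.8 CPM in those with 1, and it had 0 UMIs in those with none, which allows up to 8.94 CPM. The ciliogenesis regulators summed to 97.0 CPM (63.3 to 142), 29.5 CPM (9.59 to 68.9) and 41.7 CPM (22.8 to 70.0) in the same order. Foxj1 had 12, 0 and 5 UMIs. The 11 other tanycytes with 2 or more such UMIs had a like level of the regulators, at 97.6 CPM (59.6 to 151). Foxj1 was at 58.6 CPM (30.3 to 102) in these cells and 44.8 CPM (23.1 to 78.2) in members with 2 or more. Mlc1 differed little between the 3 groups of members, at 653, 668 and 685 CPM. The summed tanycyte genes of the rule were at 2569 CPM (2381 to 2769), 4101 CPM and 4455 CPM in the same order, lowest in the cells with most ciliary UMIs, whereas Rax alone was at 694, 721 and 563 CPM. The shared tanycyte list ran the other way, at 25605, 21631 and 16765 CPM, highest in the cells with most ciliary UMIs. Median depths were 10191, 7843 and 5809 UMIs per cell, so that deeper cells had more chance to show a UMI of either gene.

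The 10 members with most UMIs of the list held 37.6% of its 866 UMIs, and the 10 highest other tanycytes held 29.9% of 745. The highest had 81 UMIs over 34 genes of the list, 0.468% of its UMIs, with a tanycyte share of 0.173% and 2 UMIs of Foxj1. Scrublet marked none of the 10 as a doublet. At a share of 0.3% or more for the list there were 10 cells in the whole library, of which 4 were members, 0 were other tanycytes and 6 lay under the tanycyte share. One cell of the last kind reached 3.49%. Of the 6 cells outside the tanycytes in which the 4 ependymal or astroglial genes reached 0.15% of UMIs, the highest tanycyte share was 0.129%.

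**Figure D2:**
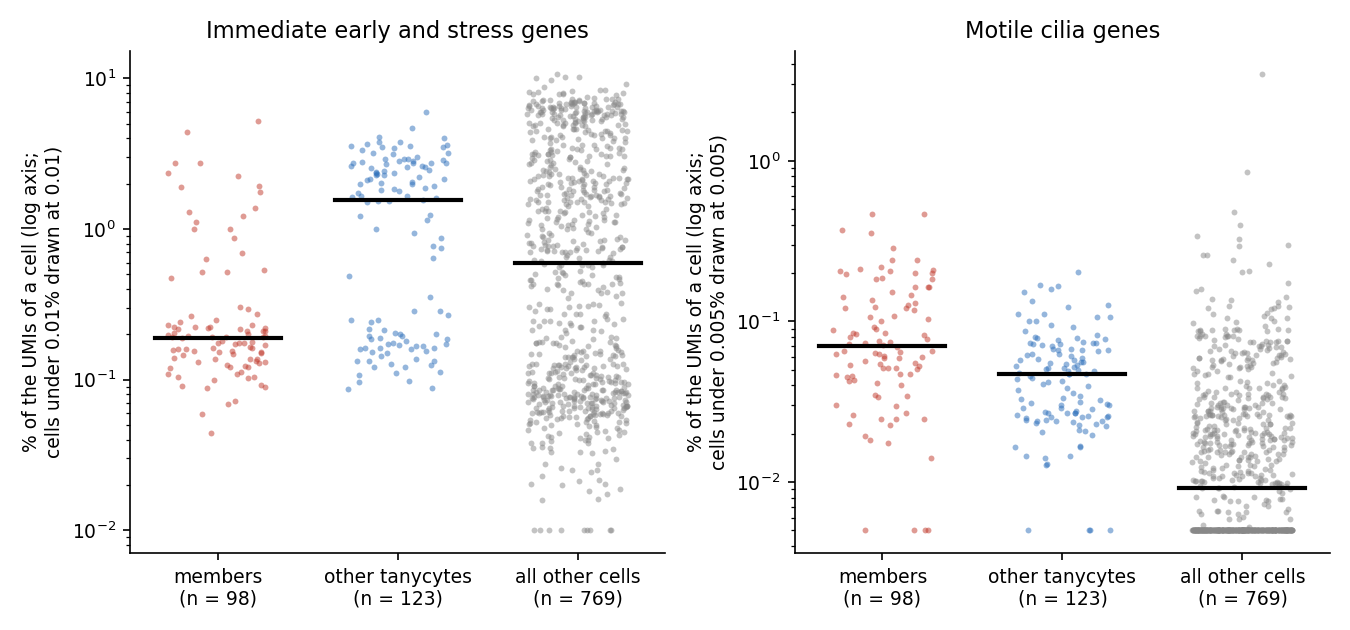
Share of each cell's UMIs (log axes) taken by immediate early and stress genes (left) and by motile cilia genes (right) in 98 members, 123 other tanycytes and 769 other cells; black bars are medians. Members have a median of 0.189% for immediate early genes against 1.56% in other tanycytes. For motile cilia genes the medians are 0.0703% and 0.0471%, and 4 members reach 0.3%.

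Astroglial genes outside the rule were higher in members as a sum, and much of that difference was Apoe. The 26 genes summed to 21880 CPM (21552 to 22212) in members, 14822 CPM (14620 to 15026) in other tanycytes and 6761 CPM in all other cells. The log2 ratio to other tanycytes was 0.56 (0.53 to 0.59), and 0.15 without the apolipoprotein Apoe, which was at 13412 and 7179 CPM and had a UMI in 87.9% of erythrocyte cells. Of the 21 genes with 20 UMIs, 2 were at least 2-fold higher and 1 at least 2-fold lower, against 0.88% and 0.935% of all genes. The median log2 ratio of the 21 genes was 0.30. The 2 higher genes were the potassium channel Kcnj10, at 24.6 and 4.31 CPM, and the receptor Gpr37l1, at 58.2 and 20.9 CPM. Kcnj10 had under 20 UMIs in other tanycytes and reached the minimum mostly through the members, so the count of 2 is no support for a difference. The lower one was Ppp1r3c, a regulator of glycogen synthesis, at 36.2 and 87.0 CPM. The receptor Ntrk2 was at 1453 and 909 CPM, the glycolytic enzyme Aldoc at 2651 and 2068 CPM and the glutamate transporter Slc1a3 at 702 and 570 CPM, whereas Cldn10 was at 1102 and 1666 CPM and the factor Sox9 at 255 and 417 CPM. Gfap, the filament protein of reactive astrocytes, had 5 UMIs in members (6.47 CPM) and S100b had 14 (18.1 CPM). The 10 partners of Aqp4 and Mlc1, among them the adhesion protein Hepacam that anchors Mlc1, summed to 452 CPM in members and 408 CPM in other tanycytes, a log2 ratio of 0.14 (-0.05 to 0.34). None of the 9 tested was past 2-fold in either direction.

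Genes shared by tanycytes were high in members. The shared tanycyte list summed to 20897 CPM (20576 to 21222) in members, 13012 CPM in other tanycytes and 1865 CPM in all other cells. The log2 ratio to other tanycytes was 0.68 (0.65 to 0.71), and 0.43 without Nnat, the imprinted gene for neuronatin, which was at 10121 and 4992 CPM and was the only one of 11 genes past 2-fold. Nnat had a UMI in 66.25% of erythrocyte cells. The growth factor Ptn was at 3660 and 2951 CPM, Prdx6 at 3282 and 1964 CPM and Mia at 1756 and 1175 CPM. In the other direction, the neural filament Nes was at 41.4 and 85.6 CPM and the homeobox factor Six3 at 417 and 582 CPM. Genes of beta tanycytes, which line the floor of the ventricle at the ME, summed to 774 CPM (713 to 838) in members and 500 CPM (464 to 539) in other tanycytes, with the opioid precursor Penk at 211 and 76.9 CPM and the orphan receptor Gpr50 at 273 and 198 CPM. Genes of alpha tanycytes were low in both, at 85.4 CPM (66.0 to 109) and 41.7 CPM (31.7 to 53.9), against 171 CPM in all other cells, and Crym, which binds thyroid hormone, was at 46.6 and 10.1 CPM, most of the sum in members and less in other tanycytes. The thyroid hormone list summed to 744 CPM in members and 598 CPM in other tanycytes.

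**Figure D3:**
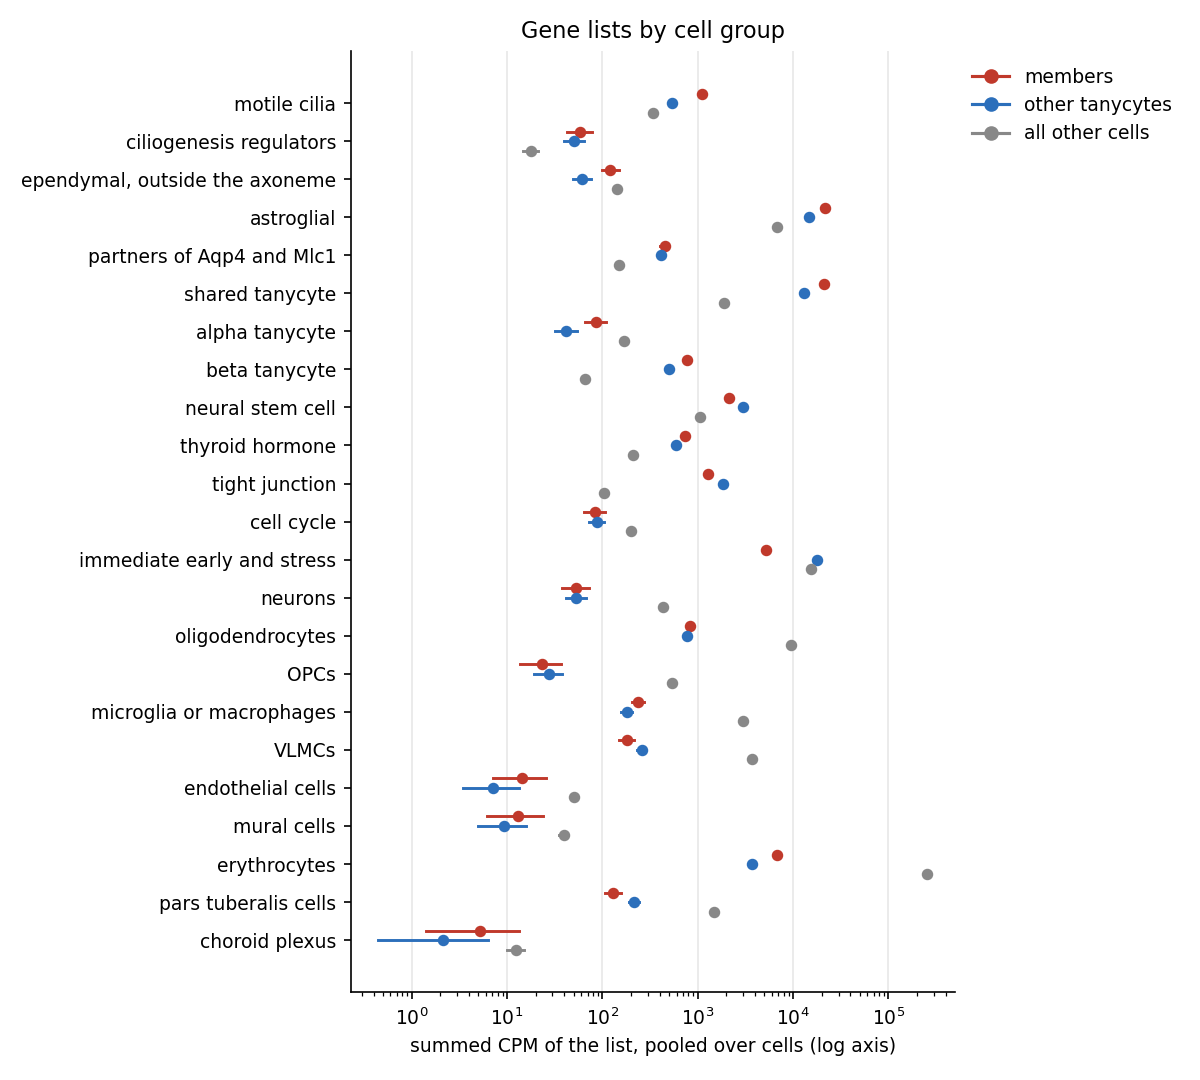
Summed CPM (log axis) of 23 gene lists, pooled over the members (red), other tanycytes (blue) and all other cells (grey), with exact Poisson 95% intervals, many of them narrower than the point. Motile cilia genes were at 1120, 536 and 338 CPM, and immediate early and stress genes at 5181, 17841 and 15412 CPM.

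The gap of the largest size between members and other tanycytes was in immediate early and stress genes, which cells switch on within minutes of stimulation or dissociation. They summed to 5181 CPM (5022 to 5344) in members, 17841 CPM (17619 to 18064) in other tanycytes and 15412 CPM in all other cells, a log2 ratio of -1.78 (-1.83 to -1.74). All 13 genes with 20 UMIs were at least 2-fold lower in members, against 0.935% of all genes, and their median log2 ratio was -1.71. After thinning to 3000 UMIs the rule was applied again and found 77 members and 137 other tanycytes, so that cells changed group. Between these new groups 6 genes were at least 2-fold lower and the log2 ratio of the sums was -0.99. The AP-1 genes Fos, Jun and Junb stood at 1052, 815 and 560 CPM in members and at 3290, 2685 and 2569 CPM in other tanycytes. The share per cell had a median of 0.189% of UMIs in members (lowest 0.0446%, highest 5.23%), 1.56% in other tanycytes (0.0871% to 5.96%) and 0.594% in all other cells, against 0.0705% in erythrocyte cells. The ranges overlapped, since 9 of 98 members were above the median of other tanycytes and 33 of 123 other tanycytes were below the median of members.

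Membership moved with this share. At or below the tanycyte median of 0.233% lay 70 members and 41 other tanycytes, so that 63.1% of these cells were members, and above it 28 and 82 (25.5%). Within the lower range the motile cilia list had a log2 ratio of 0.94 (0.68 to 1.20), and within the upper range 1.04 (0.81 to 1.26). The astroglial list gave 0.20 (0.15 to 0.25) and 0.71 (0.66 to 0.76), and the shared tanycyte list 0.27 (0.22 to 0.32) and 0.81 (0.76 to 0.85). The motile cilia ratio was of a like size in both ranges, and the other 2 lists had lower ratios among cells with few immediate early transcripts. In both ranges members were still chosen by the rule, whose ependymal or astroglial genes had log2 ratios of 1.08 (0.78 to 1.39) and 1.54 (1.28 to 1.80). A like size in both ranges therefore cannot separate the immediate early share from the choice of cells. In the lower range immediate early genes themselves had a log2 ratio of 0.05 (-0.12 to 0.22) and 0 genes past 2-fold. The cut was made on the share of these same genes, so their low level in both groups there was set by the cut. In the upper range, which has no upper limit, immediate early genes differed, at -0.59 (-0.64 to -0.53) with 2 genes past 2-fold. Members and other tanycytes were thus not matched in the upper range, where the astroglial and shared tanycyte lists differed most. The part of dissociation in these differences was not tested.

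Among genes outside the rule, most of those with the highest ratios to other tanycytes had few UMIs. After Fam183b, the highest ratios were those of Gria2, a glutamate receptor subunit, at 64.7 and 11.5 CPM, Kcne1l and 2410004P03Rik, both at 31.0 and 2.16 CPM, and S100a6, a calcium-binding protein, at 538 CPM (488 to 592) and 160 CPM (139 to 182). S100a6 had the most UMIs of the 12 and was found in 72.4% of members and 48.8% of other tanycytes (52.0% and 29.3% of the same cells after thinning). Then came Igfbp3, which binds insulin-like growth factors, at 66.0 and 13.7 CPM, the cartilage protein Ucma at 124 and 33.1 CPM, the kinase Mapk15 at 24.6 and 1.44 CPM, Morn5 at 32.3 and 4.31 CPM, Lect1 at 36.2 and 5.75 CPM, the chaperone Hspa2 at 95.7 and 27.3 CPM, and Crym. At the other end, the transcription factor Maff was at 15.5 CPM (8.02 to 27.1) in members and 159 CPM (139 to 181) in other tanycytes, and the matrix protein Matn2 at 2.59 and 53.9 CPM. Matn2 had 2 UMIs in members and was found in 35 other tanycytes, with at most 8 in 1 cell. The rest were Ier2, Fosb, Atf3, Junb and Zfp36 of the immediate early list, and Gadd45a (20.7 and 118 CPM), Irs2 (12.9 and 84.8 CPM), Socs3 (338 and 1306 CPM), Cyr61 (382 and 1449 CPM) and Cxcl10 (12.9 and 101 CPM), where 91 of 141 UMIs of Cxcl10 in other tanycytes came from 1 cell.

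**Figure D4:**
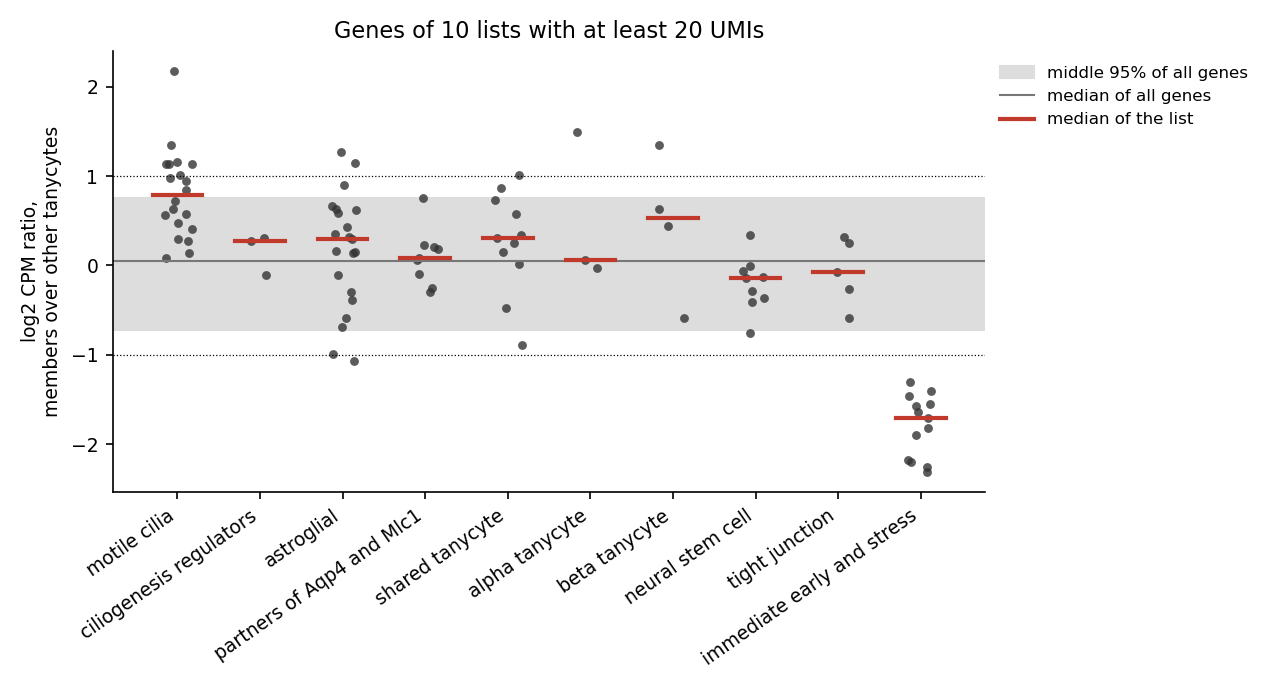
Log2 CPM ratio of members to other tanycytes for each gene with at least 20 UMIs in 10 lists. Red bars are list medians, the grey band holds the middle 95% of all 9201 genes and dotted lines mark 2-fold. The motile cilia genes have a median of 0.78 and the immediate early and stress genes a median of -1.71.

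Against all other cells, 1629 of 12838 genes (12.7%) were at least 2-fold higher in members and 1006 (7.84%) at least 2-fold lower, and the median log2 ratio of all genes was 0.28. The pool of all other cells included the 240 erythrocyte cells, and haemoglobin genes were at 256312 CPM in it. This lowers the CPM of other genes in the pool and raises their ratios. In this comparison 19 of 31 motile cilia genes, 14 of 26 astroglial genes and 11 of 11 shared tanycyte genes were at least 2-fold higher. Among genes outside the rule with at least 100 UMIs in members, the highest ratios belonged to Ager (251 and 4.56 CPM), the peptide hormone adrenomedullin (Adm, 410 and 13.7 CPM), Tmem47 (926 and 45.4 CPM), Mia (1756 and 95.4 CPM) and Ppp1r1b, which encodes the phosphatase inhibitor DARPP-32 (400 and 15.1 CPM). Aldoc, Cldn10, Col23a1, Slc1a3, Thrsp, Lix1 and Nkx2-1 completed the 12, between 14.0-fold (Nkx2-1) and 15.8-fold (Aldoc). Relative to other tanycytes, members had from 0.664 times (Cldn10) to 1.80 times (Ager) as much of these 12 genes, with 10 CPM added to each group.

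Neural stem cell genes summed to 2138 CPM in members and 3003 CPM in other tanycytes (log2 ratio -0.49, -0.57 to -0.41), and without the Notch target Hes1, at 1110 and 1880 CPM, the ratio was -0.13. Tight junction genes summed to 1276 and 1843 CPM (-0.53, -0.64 to -0.42), or -0.03 without Cldn10, and cell cycle genes to 82.8 and 87.7 CPM (-0.08, -0.54 to 0.36).

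Markers of other cell types were low in members. Relative to all other cells, oligodendrocyte genes were at 840 and 9494 CPM, genes of oligodendrocyte precursor cells (OPCs) at 23.3 and 534 CPM, microglial or macrophage genes at 237 and 3018 CPM, genes of vascular and leptomeningeal cells (VLMCs) at 180 and 3700 CPM, neuronal genes at 53.0 and 429 CPM, and pars tuberalis genes at 131 and 1487 CPM. In other tanycytes these lists stood at 779, 27.3, 180, 260, 53.2 and 216 CPM. Endothelial, mural and choroid plexus genes summed to 14.2, 12.9 and 5.17 CPM in members and to 7.19, 9.35 and 2.16 CPM in other tanycytes. Haemoglobin genes were at 6806 CPM in members and 3708 CPM in other tanycytes, and at 3817 CPM in members without the cell described above.

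The only replicated samples were the bulk libraries, in which the genes of the rule were compared between mutant and control ME. The control libraries held 8348930, 12209728 and 13816596 counts, of 34942, 21986 and 17874 genes, and the mutant libraries 10754670, 9329661, 5678941 and 4928456 counts, of 25910, 35978, 40852 and 39508 genes. Controls 2 and 3 thus had the most counts and the fewest genes, and control 1 was like mutants 2 to 4 in its number of genes. The part of this difference between libraries in the values below was not tested. Bulk CPM are scaled by edgeR TMM factors. Counts were tested with the edgeR quasi-likelihood test over 20466 genes, and none was called at an adjusted p under 0.05 (0%), while at an unadjusted p under 0.05 there were 865 higher (4.23%) and 796 lower (3.89%) genes. DESeq2 called 297 (1.46%). In all mutant libraries 1194 genes (5.83%) were above all controls and 650 (3.18%) below. In bulk tissue, more cells of a type and more RNA per cell cannot be told apart, and all 11 genes of the rule also had UMIs in other cells of the single-cell library.

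Mlc1 was at 296, 669 and 375 CPM in the 3 control libraries and at 1569, 805, 905 and 814 CPM in the 4 mutant libraries (means 447 ± 196 SD, n = 3, and 1023 ± 367 SD, n = 4). The groups did not overlap, and control 2 lay closest to the mutants. The log2 fold change was 1.20 ± 0.39 (SE), with an edgeR adjusted p of 0.463, against 0.044 with DESeq2. Aqp4 was at 99.8, 138 and 107 CPM in controls and at 169, 155, 196 and 205 CPM in mutants. Again all mutants were above all controls (log2 fold change 0.66 ± 0.27, edgeR adjusted p 0.555). The ciliary genes of the rule did not separate the groups. Cfap126 was at 39.3, 32.1 and 33.9 CPM in controls and 67.9, 31.6, 43.6 and 38.6 CPM in mutants (0.37 ± 0.33, edgeR adjusted p 0.831), and Dynlrb2 was at 36.4, 29.8 and 42.4 CPM and 40.4, 22.4, 24.9 and 23.1 CPM (-0.39 ± 0.33, edgeR adjusted p 0.821).

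Of the tanycyte genes of the rule, Scn7a was at 105, 203 and 208 CPM in controls and 106, 104, 86.7 and 79.0 CPM in mutants (-0.87 ± 0.31, edgeR adjusted p 0.514), with control 1 at the level of the mutants. Rax varied widely within each group, from 26.8 to 143 CPM in controls and from 33.2 to 175 CPM in mutants, and Col25a1 had a log2 fold change of -0.49 ± 0.29. Among the opposing genes, Lmo1 was at 41.7, 44.4 and 50.8 CPM in controls and 129, 87.0, 65.8 and 64.9 CPM in mutants (0.93 ± 0.32, edgeR adjusted p 0.514), with no overlap. Log2 fold changes of Dio2, Fndc3c1 and Fezf2 were 0.87, -0.53 and 0.59 with overlapping groups. Hence 3 of the 11 genes, Mlc1, Aqp4 and Lmo1, were above all controls in every mutant, and 0 were below. Over all 20466 tested genes these shares were 5.83% and 3.18%.

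**Figure D5:**
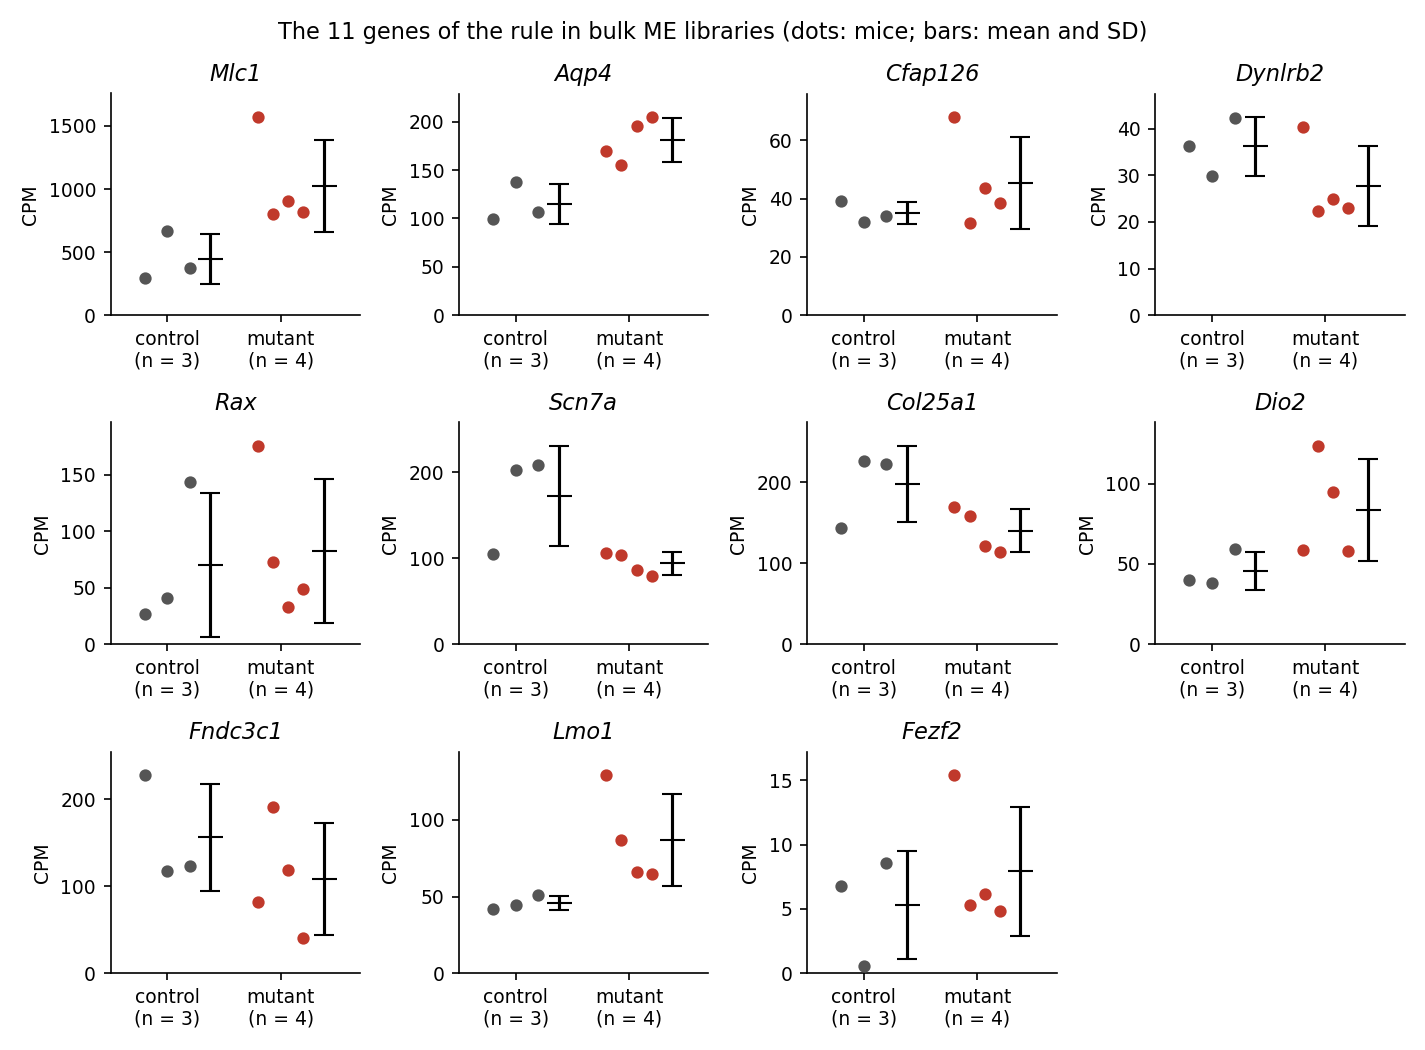
CPM of the 11 genes of the rule in bulk ME libraries, with 1 dot per mouse for 3 controls and 4 Rax::BrafV600E mutants, and bars for the mean and SD. Mlc1, Aqp4 and Lmo1 do not overlap between the groups, and the ciliary genes Cfap126 and Dynlrb2 do.

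The ciliary and the astroglial list gave different values in the mutants. Of 26 astroglial genes, 10 were higher at an unadjusted p under 0.05 and 0 lower, against 4.23% and 3.89% of all genes. In every mutant 10 of the 26 were above all controls, against 5.83% of all genes. The median log2 fold change was 0.61, against 0.13 over all tested genes. The sum of the list overlapped between the groups, at 25700 ± 13310 CPM (SD, n = 3) in controls and 26464 ± 7260 CPM (SD, n = 4) in mutants. The 6 genes with a log2 fold change below 0 included the filament gene Gfap (-0.63 ± 0.54), Cldn10 (-0.39 ± 0.29) and Aldoc, which was at 1370, 3278 and 11853 CPM in controls and 3794, 2141, 2384 and 2670 CPM in mutants. Kcnj10 was at 24.9, 24.6 and 60.8 CPM in controls and 113, 148, 178 and 107 CPM in mutants (1.89 ± 0.40, edgeR adjusted p 0.267), and the bicarbonate transporter Slc4a4 at 30.8, 35.9 and 37.2 CPM and 82.1, 86.3, 114 and 157 CPM (1.67 ± 0.32, edgeR adjusted p 0.198). DESeq2, which called 1.46% of all genes, called 6 of the 26, all higher, namely Slc4a4, Kcnj10, Slc1a2, Gja1, Slc1a3 and Fgfr3. With control 1 left out, 7 were higher and 3 lower at an unadjusted p under 0.05, when 22.0% of all genes were higher, so the list was then close to the background. With any other library left out, 9 to 11 were higher, when 2.27% to 4.91% of all genes were higher. Of 61 motile cilia genes, 0 were higher and 1 lower at an unadjusted p under 0.05, against 4.23% and 3.89% of all genes. In every mutant 1 was above and 4 were below all controls, against 5.83% and 3.18% of all genes. The median log2 fold change was 0.01 (-0.04 with upper-quartile scaling). Without control 1, 8 of the 61 were higher and 4 lower at an unadjusted p under 0.05, when 22.0% of all genes were higher and 7.38% lower. Without mutant 1, 0 were higher and 9 lower, when 4.11% of all genes were higher and 4.81% lower. With all libraries the lower gene was Dynlt1b (edgeR adjusted p 0.411, DESeq2 adjusted p 0.0413), a dynein light chain with near-identical copies, among which counting could split reads. Among the regulators, Rfx4 was at 15.9, 16.5 and 15.8 CPM in controls and 50.7, 57.7, 71.1 and 43.3 CPM in mutants (1.79 ± 0.31, edgeR adjusted p 0.131, DESeq2 adjusted p 2.61e-05), although it had 0 UMIs in the members. The difference between the 2 lists was not tested.

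Other lists in bulk are given by their medians. Shared tanycyte genes had a median log2 fold change of 0.26, alpha and beta tanycyte genes -0.12 and 0.36, and immediate early and stress genes 0.46, each with 0 genes called by edgeR. Of single genes, Crym was at 24.2, 59.2 and 69.1 CPM in controls and 217, 87.0, 220 and 228 CPM in mutants (1.88 ± 0.46, edgeR adjusted p 0.359, DESeq2 adjusted p 0.00431). For 3 lists of markers of other cell types, the sums did not overlap between the genotypes, although edgeR called none of their genes. DESeq2 called Olig1 (adjusted p 0.00495), Dcn (1.29e-05), Lum (0.000297) and Plvap (0.000425) among them. OPC genes summed to 192, 508 and 234 CPM in controls and 1292, 705, 641 and 1577 CPM in mutants, most of it Olig1. VLMC genes summed to 1167, 2740 and 2916 CPM in controls and 803, 580, 495 and 380 CPM in mutants, most of it Dcn. Endothelial genes summed to 427, 328 and 233 CPM in controls and 163, 94.5, 170 and 117 CPM in mutants. Mutants were higher for OPC genes and lower for the other 2 lists. The sums of oligodendrocyte genes overlapped, at 6126, 19230 and 16178 CPM and 7448, 5925, 3823 and 4293 CPM. All 8 of these genes nevertheless had a log2 fold change below 0, with a median of -1.36. Of the 8, 7 were lower at an edgeR unadjusted p under 0.05, against 3.89% of all genes, and DESeq2 called 3 lower. The part of these lists in the values of Mlc1, Aqp4 and the astroglial list was not tested.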

How the data were processed

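The authors deposited UMI counts per gene and cell from 1 pooled 10x library (Cell Ranger 2.0.1 in the submitters' notes, GRCm38) and raw gene counts from 7 Smart-seq2 libraries, whose aligner and counter are not given in the sources used here. No column was left out. Members, lists and tests were chosen with earlier results of these data known. All 990 deposited cells were kept. Group sums were scaled to CPM, and gene ratios, with 10 CPM added, were taken for genes with at least 20 UMIs over both groups. Named genes were those of the rule and the lists, and, outside the rule, the 12 highest and 12 lowest ratios to other tanycytes and the 12 highest to all other cells (at least 100 UMIs in members). Other list genes named singly were chosen after their values were seen. Bulk counts were tested in edgeR 4.0.16 (quasi-likelihood, TMM scaling, filterByExpr, R 4.3.3) with Benjamini-Hochberg adjustment, and DESeq2 1.42.0 was the alternative. The labels do not say that each bulk library is 1 mouse, and this was taken from the study's methods, which name as many mice as libraries in each group. Scripts were tested on simulated data. Scrublet ran in scanpy 1.11.5.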

Additional observations from a re-analysis of the deposited data

Results flagged for a closer look

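Among the 4 mutant libraries, 37 values were tested for 1 library far from the other 3, and 4 were found, all with mutant 1 as the highest. Chance gives about 1 such value in 20 groups. They were Mlc1 at 1569 CPM, Dynlrb2 at 40.4 CPM, Fezf2 at 15.4 CPM and the shared tanycyte list at 10384 CPM. Without mutant 1 the log2 fold change of Mlc1 was 0.94.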

How the results depend on the processing

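A lead of over 3 UMIs gave 43 members, and thinning each cell to 3000 UMIs gave 77. Motile cilia genes in members were at 1248 CPM with a tanycyte share of 0.10%, 911 with 0.20%, 1522 with the larger lead, 948 after thinning and 1017 as a mean over cells. Astroglial genes were at 22230 CPM with 0.20%, 21447 with the larger lead, 22223 as a mean over cells, and 21540 and 22761 in the lower and upper range of immediate early share. Shared tanycyte genes were at 22254 CPM with 0.10%, 20207 with 0.20%, 22836 with the larger lead, 21233 without cells of high mitochondrial share and 21593 after thinning. Against other tanycytes, genes at least 2-fold higher and lower numbered 163 and 187 with the larger lead, 270 and 290 with 1 CPM added, and 20 and 51 with a minimum of 100 UMIs. They numbered 133 and 247 in the upper range of immediate early share, and 118 and 33 in the lower range. Motile cilia genes at least 2-fold higher numbered 9 with the larger lead, 10 with 1 CPM added, 0 with the minimum of 100 UMIs, and 3 and 4 in the lower and upper range. The split by immediate early share and the removal of haemoglobin-rich cells were chosen after seeing the data. In bulk, DESeq2 called 297 genes, upper-quartile scaling 1, library size alone 3, no filter 240 and at least 10 counts in every library 13. Leaving out 1 library gave 0 to 45 calls (45 without control 1, 16 without control 3). Rax had log2 fold changes of -0.42 to 1.32 when 1 library was left out, with -0.17 without control 1 and -0.42 without mutant 1. Fezf2 was not tested under the stricter filter. The median log2 fold change of all genes was 0.13, 0.14 with upper-quartile scaling and 0.25 with library size alone. Replicate numbers did not pair the samples (correlations of deviations -0.45, -0.01 and -0.23), and with the replicate number as a block edgeR called 0 genes, with 549 at an unadjusted p under 0.05. The causes were not tested. Depth limits all genes of few UMIs, with 3 counts equal to 3.88 CPM in members.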
